A study of Homo sapiens with 6 samples.

Results

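The resting transcriptome of IMR-32 cells in solvent was described from the 3 libraries of cells given DMSO, out of 6 libraries in the series. IMR-32 is an established human neuroblastoma line with amplified MYCN, and its genotype is labelled WT. The cells grew in RPMI-1640 with fetal bovine serum and received DMSO for 24 h, after which polyadenylated RNA was purified from total RNA and sequenced. The other 3 libraries received PTC-028, an inhibitor of the Polycomb protein BMI1, and enter no value given here. All values of the DMSO columns were used, rows that share a gene symbol were summed, and the level of a gene is its mean over the libraries. Where a gene has 3 values, they are those of DMSO libraries 1, 2 and 3 in that order. The unit is TPM, the abundance of a transcript per length as a share of all transcripts, scaled so that every library has the same total. There is 1 group, so no test was made, and errors are standard deviations (SD, n = 3). The labels do not say whether the libraries came from separate cultures, so the SD may be technical. TPM keeps no read depth, the depth of the libraries is therefore unknown, and no counting interval is given.

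Neuroblastoma arises from the sympathoadrenal branch of the neural crest, whose cells become sympathetic neurons or chromaffin cells of the adrenal medulla. A circuit of transcription factors that includes HAND2, GATA3 and ISL1 holds these cells in an adrenergic state, and many neuroblastomas also hold cells in a mesenchymal state with other factors. Mature sympathetic neurons release noradrenaline, except for a minority that release acetylcholine, and amplification of MYCN marks an aggressive form of the tumour.

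In all, 22828 genes had a value after summing, and 13428 of them (58.8%) had a mean of at least 1 TPM, the level called "reached 1 TPM" from here on. Among the 17479 protein-coding genes the share was 71.1% and the median level 9.10 TPM. These shares are the background for the gene lists that follow. All lists were chosen with earlier results of these data known, so their shares may reflect the choice of members. The table holds no row at 0 in all 6 libraries, so genes without any signal may be missing from it. Shares here and in the lists are of genes in the table, and may be higher than over all annotated genes. At the high end, 1445 genes had at least 100 TPM and 144 had at least 1000 TPM. At the low end, 1563 genes were listed at 0 in every DMSO library, 484 of them protein-coding. A value of 0 in a TPM table can be a failed estimate as well as an absent transcript, so such genes are given as listed at 0.

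The top of the ranking was held mostly by genes of translation and by mitochondrial transcripts. The 10 most abundant genes held 8.27% ± 0.473 of the TPM, the 100 most abundant 35.9% ± 0.776 and the 1000 most abundant 67.3% ± 0.955. Ranked within each library, 257, 293 and 262 genes were enough to hold 50% of the TPM in libraries 1, 2 and 3, so library 2 was the most even. EEF1A1, the elongation factor that delivers aminoacyl-tRNA to the ribosome, had 11911, 11920.2 and 11428 TPM and the highest mean. MT-CO2, a mitochondrially encoded subunit of cytochrome c oxidase, had 11972, 10677 and 10273 TPM and was the highest gene of library 1, and its range overlapped that of EEF1A1. RPL41, a small protein of the large ribosomal subunit, had 10791, 9989 and 10254 TPM and ranked 3 in every library. Of the 30 most abundant genes, 18 encoded cytosolic ribosomal proteins and 5 were mitochondrially encoded. The order among the 30 was loose, since 26 of the 29 neighbouring pairs in the ranking overlapped in their library values. Within the leading 10, the neighbours without overlap were RPL41 and RPS27, RPS27 and RPL37A, and MT-CO1 and RPL31. The last pair is no clear step in the ranking, since MT-ND4L, ranked above both, had 5394 TPM in library 3, below RPL31.

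By gene class, the 87 cytosolic ribosomal proteins held the largest share among the classes counted, 24.1% ± 0.783 of the TPM, and every one of them reached 1 TPM. Their share was 24.2, 23.2 and 24.7% in the libraries. The 13 mitochondrially encoded genes held 5.60, 4.98 and 4.50%, which made them the class with the widest spread, 1.24-fold between the highest and the lowest library. The nuclear genes of oxidative phosphorylation, the same respiratory chain encoded in the nucleus, held 2.36, 2.27 and 2.47% and had library 3 highest, where the mitochondrial genes had it lowest. Translation factors held 2.79% ± 0.0204, proteins of splicing (hnRNP, SR and core spliceosome) 2.25% ± 0.0196, actin and its small regulators 1.95% ± 0.0302 and glycolytic enzymes 1.44% ± 0.0409. Smaller shares went to heat shock proteins and chaperonins with 1.32% ± 0.0218, histones with 0.796% ± 0.0116, proteasome subunits with 0.711% ± 0.014 and tubulins with 0.58% ± 0.0138. RNA was selected by its poly(A) tail, and most replication-dependent histone mRNAs have none, so the histone share covers such mRNAs in part. The leading histone genes were H3F3B, H3F3A and H2AFZ, which encode replacement variants. Granins and secreted neuropeptides, products of the secretory granules of neuroendocrine cells, held 0.0847% ± 0.00471. All genes outside the classes and the pseudogenes together held 52.9% ± 0.857.

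**Figure D1:**
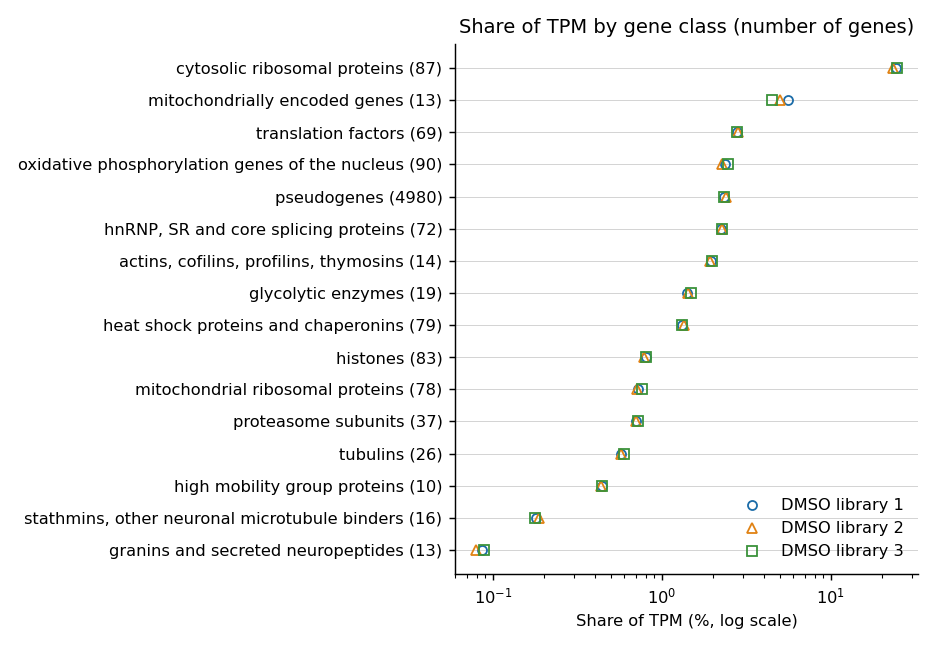
Share of TPM (percent, log axis) of 16 gene classes in each DMSO library, with the number of genes of each class in parentheses and 1 symbol per library. Cytosolic ribosomal proteins lie between 23.2 and 24.7%, and the mitochondrially encoded genes show the widest gap between libraries, 5.60% in library 1 and 4.50% in library 3.

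Within the classes, the leading members were the following. GAPDH, the glycolytic dehydrogenase, had 5317, 5328 and 5721 TPM, and it was followed in its class by LDHB and PKM with means of 2080.0 and 2035 TPM. ACTG1, the gamma actin of the cytoskeleton, had 5379, 5425 and 5149.9 TPM and overlapped in range with TMSB10, a thymosin that binds actin monomers, at 5296, 4965 and 5569 TPM. HSPA8, the constitutive chaperone of the HSP70 family, averaged 2088 ± 98.3 TPM. TUBA1B, an alpha tubulin of dividing cells and neurons, averaged 2207 ± 74.2 TPM. The splicing class was led by HNRNPA1 at 3507 ± 59.0 TPM, and the high mobility group class by HMGB1, an abundant DNA-bending chromatin protein, at 1524 ± 36.6 TPM. Outside all classes, the leading genes were DDX1, PTMA and PPIA. PTMA encodes prothymosin alpha, an acidic nuclear protein of growing cells, and had 3821, 3627 and 3798 TPM. PPIA encodes cyclophilin A, a prolyl isomerase, and had 3463, 3396 and 3655 TPM.

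Pseudogenes held 2.32, 2.40 and 2.33% of the TPM, and 848 of the 4980 listed reached 1 TPM. Copies of abundant genes led the class. AC116533.1 on chromosome 11 had 5068, 5272 and 4673 TPM and ranked 20 among all genes, while RPL36A, the ribosomal protein gene with the same sequence over all 321 bases, had 1639, 1474 and 1801 TPM. AC004057.1 on chromosome 4 had 3998, 3847 and 4301 TPM and is identical over 348 bases to RPS26, which had 989, 886 and 910.0 TPM. In both pairs the copy had the higher value in every library. Reads of identical sequence cannot be assigned to a locus, so the division between the members of such a pair is uncertain. The same holds for H3F3AP4 at 1043 TPM beside H3F3A at 1836 TPM, and for RPS28P7 at 443 TPM beside RPS28 at 1694 TPM, which are also identical over the aligned length. These pairs, RPL36A and RPS26 were named after their values were seen.

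MYCN, the transcription factor whose amplification defines this group of neuroblastomas, was among the most abundant transcripts. It lies at chromosome 2, 15940564 to 15947007 (GRCh38, plus strand) and had 1059, 1101 and 1109 TPM, a mean of 1089.6 ± 27.0 TPM and rank 138 of all genes. The 3 values lie close together. DDX1, an RNA helicase gene at chromosome 2, 15591178 to 15631111, starts 0.349 Mb before MYCN and is known to be amplified with it in part of these tumours. It had 5688, 5682 and 5696 TPM, ranked 12 of all genes and had the smallest coefficient of variation, 0.122%, among all genes with at least 100 TPM. NBAS, which encodes a protein of vesicle transport from the Golgi to the endoplasmic reticulum and starts 0.774 Mb before MYCN, had 396, 424 and 433 TPM. On the other side, FAM49A, a regulator of actin through RAC1, starts 0.609 Mb after MYCN and had 1.81, 1.75 and 1.54 TPM. Every library thus had the order DDX1, MYCN, NBAS and FAM49A, with no overlap between them. The remaining annotated gene within 1 Mb, the processed pseudogene AC007738.1, had 0.395, 0 and 0 TPM.

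Along chromosome 2, the genes around MYCN included several of the highest. Of the 1148 protein-coding genes of the chromosome in the table, MYCN ranked 10 and DDX1 ranked 3. The 31 protein-coding genes that start within 5 Mb of MYCN had a median of 15.9 TPM, against 10.6 TPM for the whole chromosome. The next gene before NBAS, FAM84A, had 402, 437 and 394 TPM. Farther along the same arm, MEIS1, a homeodomain partner of PBX proteins that starts 50.5 Mb after MYCN, had 231, 238 and 219 TPM. ANTXR1, a receptor for anthrax toxin that binds collagen, starts 53.1 Mb after MYCN, had 1518, 1563 and 1444 TPM and ranked 8 on the chromosome. TLX2, a homeobox gene of neural crest derivatives, starts 58.6 Mb after MYCN and had 489.6, 486 and 548 TPM. FAM84A, ANTXR1 and TLX2 were chosen after their values were seen, and the copy number of none of these genes was measured here.

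**Figure D2:**
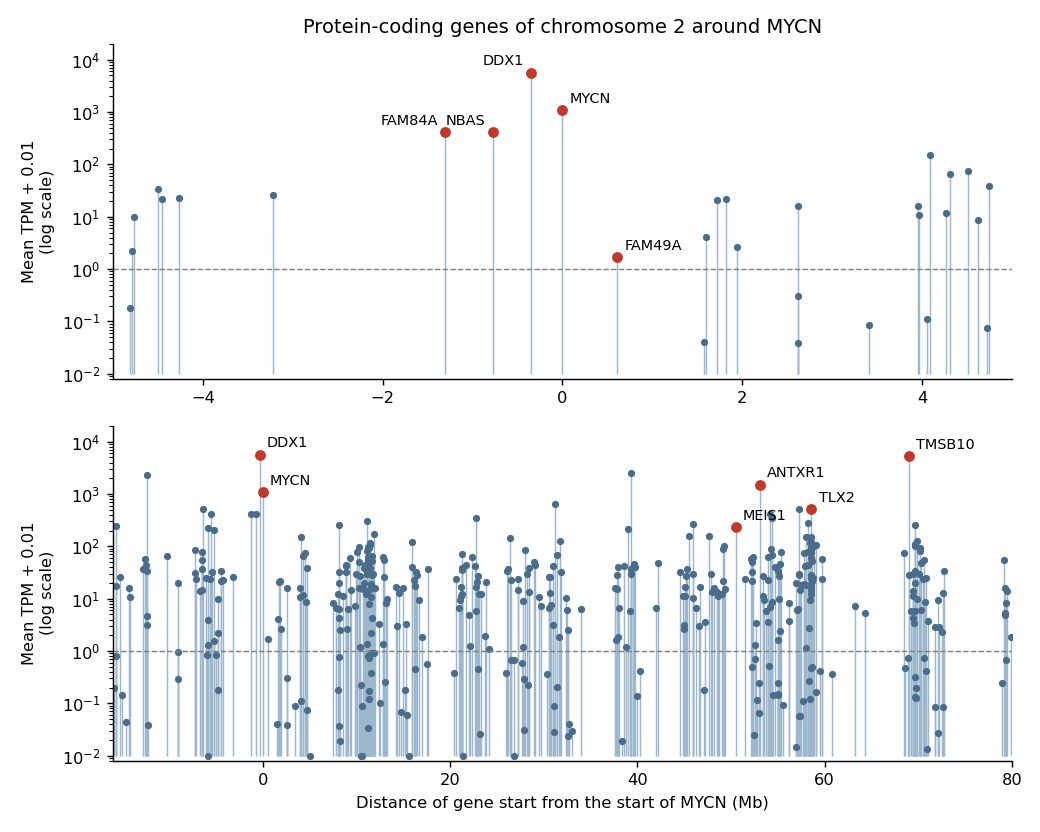
Mean TPM over the 3 DMSO libraries plus 0.01 (log axis) of protein-coding genes of chromosome 2 against the distance of their start from that of MYCN in Mb, within 5 Mb (top) and over a wider stretch (bottom). Each point is 1 gene, the dashed line marks 1 TPM and named genes are red. DDX1 at 5689 TPM, MYCN, NBAS and FAM84A stand above the genes around them, while FAM49A lies near 1 TPM.

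The label of the cells was set beside markers of the sympathoadrenal lineage, and nearly all of them were present. MYCN and GATA3, a zinc finger factor required for sympathetic neurons, were both high, GATA3 with 149.9, 150.2 and 139 TPM. PHOX2A, HAND2, GATA2, ISL1 and CHGA each had at least 10 TPM in every library. TH averaged above 10 TPM only through library 3, with 9.14, 8.97 and 13.8 TPM, and DBH averaged 4.10 ± 0.138 TPM. Of the 31 transcription factors listed for the adrenergic state, 29 reached 1 TPM (93.5%, against 71.1% of protein-coding genes), and 8 had at least 100 TPM. Their median was 31.4 TPM. The list was chosen with earlier results of these data known, so its share is no independent check of the label. In bulk RNA, fewer cells with a transcript and less of it per cell cannot be told apart.

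HAND2, a basic helix-loop-helix factor that switches on noradrenergic genes, had 484, 487 and 522 TPM, the highest of the list after MYCN. PHOX2A, a homeodomain factor that activates genes of noradrenaline synthesis, had 341, 317 and 384 TPM, below HAND2 in every library. Both HAND genes were high, since HAND1 averaged 109.6 ± 3.55 TPM, and the T-box repressor TBX2 averaged 113 ± 5.60 TPM with a range that overlapped that of HAND1. ISL1, a LIM homeodomain factor of sympathetic and sensory neurons, averaged 98.4 ± 3.89 TPM. INSM1, a zinc finger factor of neuroendocrine cells, averaged 72.9 ± 3.31 TPM, and the neural progenitor factors SOX4 and SOX11 averaged 68.7 and 64.7 TPM. GATA2, the relative of GATA3, was lower with 15.8, 16.6 and 19.0 TPM.

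The members that missed 1 TPM were TFAP2B, a factor of noradrenergic differentiation, with 0.922, 0.659 and 0.486 TPM and EPAS1, the oxygen-sensing factor HIF-2 alpha, with 0.335, 0.415 and 0.302 TPM. LMO1, a LIM-only cofactor and neuroblastoma susceptibility gene, had 6.33, 6.39 and 7.30 TPM. RORA, a nuclear receptor, had 3.77, 9.06 and 3.32 TPM and was the member with the most uneven libraries, high in library 2. SIX3, a homeobox gene best known from the forebrain and eye, stood in the same list at 49.3 ± 2.26 TPM.

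Promoter windows of a few genes at both ends of the range are shown to set the sequence beside the level. They cover 250 bases before to 50 bases after a transcription start and come from RefSeq (GRCh38.p14), in lower case and 5′ to 3′ on the strand of the gene, with each CG dinucleotide in capitals. MYCN (plus strand, chr2:15940300-15940599) and PHOX2A (minus strand, chr11:72244127-72244426) stand for abundant regulators. SOX1 (plus strand, chr13:112066899-112067198), a factor of early neural plate cells, was listed at 0, and ALB (plus strand, chr4:73404037-73404336), which encodes serum albumin of the liver, averaged 0.287 TPM.
MYCN: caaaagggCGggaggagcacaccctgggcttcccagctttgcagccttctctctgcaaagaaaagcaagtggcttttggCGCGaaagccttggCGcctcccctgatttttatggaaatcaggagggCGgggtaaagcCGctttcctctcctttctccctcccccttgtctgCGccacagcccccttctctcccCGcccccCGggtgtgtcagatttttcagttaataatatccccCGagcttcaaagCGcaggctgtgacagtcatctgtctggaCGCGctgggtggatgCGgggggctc
PHOX2A: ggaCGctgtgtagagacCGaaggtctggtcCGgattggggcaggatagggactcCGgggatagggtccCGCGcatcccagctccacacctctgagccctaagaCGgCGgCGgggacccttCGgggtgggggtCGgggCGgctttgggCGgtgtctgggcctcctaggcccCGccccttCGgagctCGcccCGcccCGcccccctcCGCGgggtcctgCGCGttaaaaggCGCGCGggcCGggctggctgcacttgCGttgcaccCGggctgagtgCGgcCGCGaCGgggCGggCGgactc
SOX1: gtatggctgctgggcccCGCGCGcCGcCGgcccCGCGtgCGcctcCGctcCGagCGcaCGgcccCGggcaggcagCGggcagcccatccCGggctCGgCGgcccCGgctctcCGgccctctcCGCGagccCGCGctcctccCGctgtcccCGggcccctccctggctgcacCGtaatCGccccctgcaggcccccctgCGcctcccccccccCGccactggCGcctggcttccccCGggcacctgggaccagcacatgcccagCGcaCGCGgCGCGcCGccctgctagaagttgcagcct
ALB: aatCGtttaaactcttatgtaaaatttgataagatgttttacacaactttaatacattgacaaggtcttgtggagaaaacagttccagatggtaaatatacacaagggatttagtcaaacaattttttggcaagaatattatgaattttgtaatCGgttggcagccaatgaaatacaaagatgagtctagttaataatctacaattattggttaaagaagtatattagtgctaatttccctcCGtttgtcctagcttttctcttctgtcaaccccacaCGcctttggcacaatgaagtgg

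MYCN held 14 CG dinucleotides, PHOX2A 34, SOX1 37 and ALB 4, against a median of 14 over the 35116 windows of the table. So a window rich in CG belonged to an abundant gene (PHOX2A) and to one listed at 0 (SOX1), while the abundant MYCN stood at the median. The hexamer GGGCGG, the core of sites for factors such as SP1, occurred on either strand in the windows of MYCN, PHOX2A and SOX1 but not ALB, and in 45.0% of all windows. It contains a CG dinucleotide itself. CACGTG, the E-box that MYC proteins bind and which also contains CG, was in none of the 4 windows and in 7.26% of all windows. TATAAA was in none of the 4 and in 11.5% of all windows. A comparison of windows over levels was void, because 77.9% of the protein-coding genes had a window and 80% was the minimum set.

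The other side of the cell state, the mesenchymal genes, was present in part. Of 37 such genes in the table, 20 reached 1 TPM (54.1%, against 71.1% of protein-coding genes), with a median of 3.23 TPM. ANXA2, a calcium-dependent membrane-binding protein, had 591, 593 and 601 TPM. VIM, the intermediate filament vimentin, had 329.5, 339 and 357 TPM, TWIST1, a basic helix-loop-helix factor of mesenchyme that is also known as a partner of MYCN, had 286, 284 and 296 TPM, and SPARC, a secreted matrix protein, averaged 168 ± 1.57 TPM. The transcription factors of the list were uneven. SNAI1 and SNAI2, zinc finger repressors of epithelial genes, averaged 44.8 ± 1.71 and 10.2 ± 1.28 TPM, and ELK4, IRF2, FOSL2 and IRF1 averaged 6.38, 3.50, 3.23 and 2.02 TPM. PRRX1, a paired homeobox factor, had 0.0122, 0 and 0.0127 TPM, and RUNX1, RUNX2, TBX18 and FOSL1 averaged 0.611, 0.00661, 0.227 and 0.14 TPM. The Hippo pathway coactivators were unequal, with YAP1 at 8.26 ± 1.47 TPM and its relative WWTR1 (TAZ) at 0.228 TPM. Among the NOTCH receptors, NOTCH3 averaged 15.2 ± 3.21 TPM, NOTCH1 0.908 TPM and NOTCH2 0.127 TPM. S100A10, the protein partner of annexin A2, was listed at 0 in all 3 libraries beside its abundant partner, as were S100A11 and TWIST2, whereas S100A6 averaged 79.1 ± 8.44 TPM.

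Genes of earlier and parallel neural crest fates were present in part. Of 17 genes of crest progenitors, 11 reached 1 TPM (64.7%, against 71.1% of protein-coding genes). They were led by TWIST1 and by ID2, an inhibitor of basic helix-loop-helix factors, at 83.9 ± 4.50 TPM. The crest specifiers FOXD3 and PAX7 averaged 0.00721 and 0.00321 TPM, and PAX3 averaged 0.2 TPM. SOX10, the master factor of Schwann cells and melanocytes, had 0.333, 4.19 and 0.476 TPM, so it passed 1 TPM on library 2 alone. Of 13 Schwann cell and glial markers in the table, 5 reached 1 TPM (38.5%) and 1 had at least 10 TPM. That gene was PMP22, a peripheral myelin protein found in many other cells, with 26.1, 23.8 and 24.2 TPM. S100B, FABP7 and CDH19 each averaged below 1 TPM, and the summed level of the list was 30.4 to 36.2 TPM per library.

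Regulators of other parts of the nervous system were mostly near 0, with a small group of exceptions. Of 33 such factors in the table, 8 reached 1 TPM (24.2%, against 71.1% of protein-coding genes). Another 4 were listed at 0, and the median was 0.17 TPM. Forebrain, midbrain and spinal cord factors such as PAX6, EMX2, LHX2, EN1 and MNX1 averaged 0.113, 0.149, 0.52, 0.0945 and 0.174 TPM. SOX1, EN2, ATOH1 and EOMES were the factors listed at 0. The exceptions were led by NEUROD1, a basic helix-loop-helix factor of neuronal differentiation, with 140.0, 156 and 140.2 TPM. LHX9, a LIM homeobox gene of gonad and diencephalon, had 83.0, 87.0 and 71.8 TPM, and NEUROG2, a proneural factor of sensory and cortical neurons, had 32.3, 32.2 and 30.7 TPM. TLX3, FEV and DLX5, known from sensory, serotonergic and forebrain inhibitory neurons, averaged 13.8, 13.7 and 13.1 TPM, and PAX5 and NR4A2 averaged 4.10 and 2.00 TPM. Each of the 8 was at or above 1 TPM in every library. POU4F1, the sensory neuron factor BRN3A, averaged 0.123 TPM. None of the 8 exceptions overlapped in range with a member below 1 TPM.

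**Figure D3:**
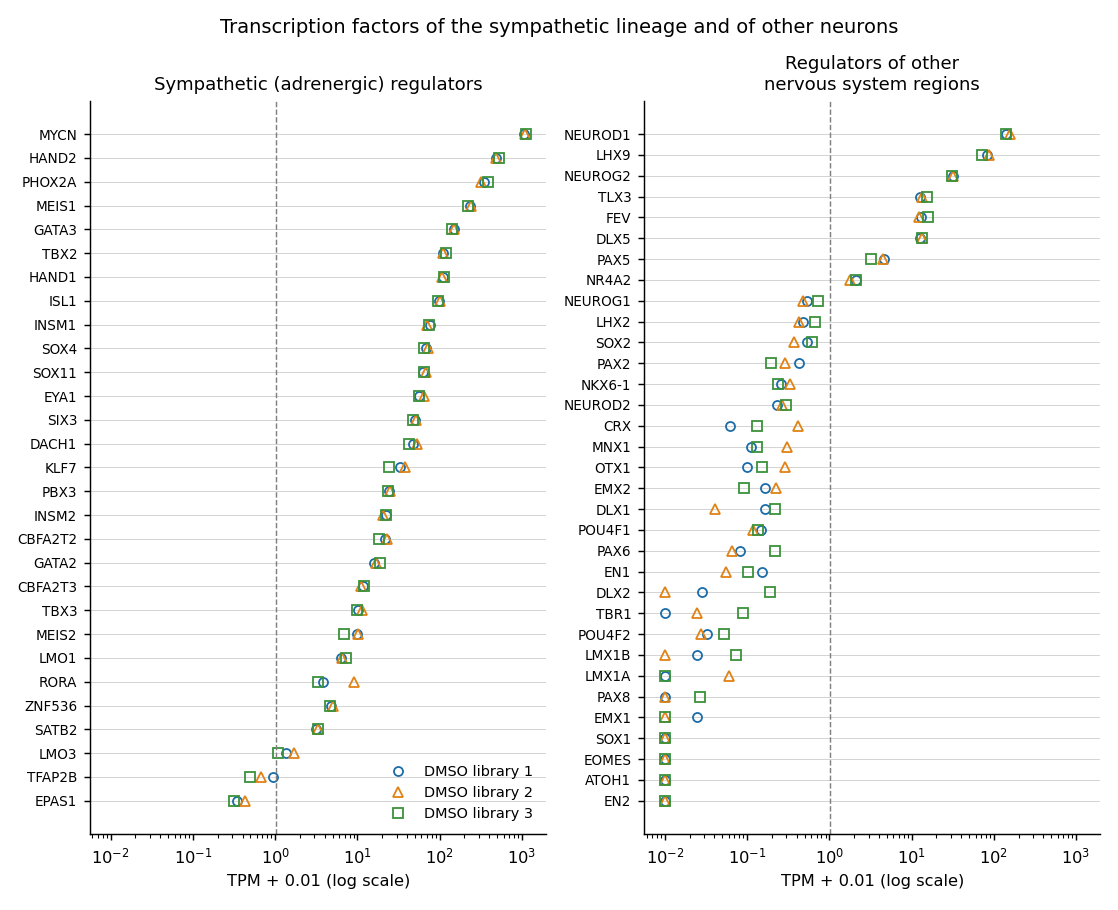
TPM plus 0.01 (log axis) in each DMSO library for 29 of the transcription factors of the adrenergic state (left) and 33 factors of other nervous system regions (right), ordered by mean, with 1 symbol per library and a dashed line at 1 TPM. On the left 27 genes lie right of the line, on the right 8, led by NEUROD1 and LHX9, and a symbol at 0.01 is a library in which the gene has 0 TPM.

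The HOX genes, which record position along the body axis, differed by cluster. Of 24 in the table, 9 reached 1 TPM (37.5%, against 71.1% of protein-coding genes). All 9 belonged to the HOXC and HOXD clusters. HOXD3 had 23.6, 20.8 and 21.5 TPM, HOXD8 17.4, 14.9 and 15.4 TPM and HOXD9 10.3, 8.73 and 11.1 TPM. HOXC4 averaged 9.94 ± 0.743 TPM, followed by HOXC6, HOXD4, HOXC8, HOXC9 and HOXC5 between 1.42 and 3.63 TPM. The posterior genes HOXC10, HOXC12, HOXC13, HOXD10, HOXD11 and HOXD13 were each below 0.1 TPM or listed at 0. The members of the HOXA and HOXB clusters in the table were also below 1 TPM, the highest being HOXB7 at 0.108 TPM. Another 15 HOX genes had no row in the table, are not in the count and were not analysed here.

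For the transmitter phenotype, the pathway to noradrenaline was present but modest. Of 15 genes of catecholamine synthesis, storage and breakdown, 11 reached 1 TPM (73.3%, near the 71.1% of protein-coding genes). TH, tyrosine hydroxylase and the rate-limiting enzyme, had 9.14, 8.97 and 13.8 TPM, with library 3 highest. DDC, which turns L-DOPA into dopamine, averaged 14.5 ± 0.47 TPM, and DBH, which makes noradrenaline from dopamine, had 3.97, 4.24 and 4.09 TPM. PNMT, the enzyme that makes adrenaline in chromaffin cells, averaged 0.616 TPM. The genes for the tetrahydrobiopterin cofactor of TH were higher than TH itself, with QDPR at 57.9 ± 5.67, PTS at 37.7 ± 0.961, SPR at 20.2 ± 2.82 and GCH1 at 19.3 ± 0.767 TPM. SLC6A2, the noradrenaline transporter through which neuroblastoma takes up the tracer MIBG, had 93.0, 91.9 and 91.5 TPM. The vesicular monoamine transporters were near 0, SLC18A2 with 0.176, 0.154 and 0.211 TPM and SLC18A1 with 0.129, 0.0771 and 0 TPM. Of the breakdown enzymes, MAOA averaged 7.78 ± 2.10 TPM, and MAOB was listed at 0 in libraries 1 and 2.

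Genes of acetylcholine transmission were also present. Of 12 in the table, 9 reached 1 TPM (75%, near the 71.1% of protein-coding genes) and 8 had at least 10 TPM. The median was 23.4 TPM, against 10.6 TPM for the catecholamine list. These medians are of unlike lists, since the acetylcholine list includes receptors and the catecholamine list covers synthesis, storage and breakdown. CHAT, the enzyme that makes acetylcholine, had 69.4, 73.8 and 58.6 TPM. SLC18A3, the vesicular acetylcholine transporter encoded within the first intron of CHAT, had 42.2, 39.8 and 47.4 TPM. So the vesicular transporter for acetylcholine was far above those for monoamines in every library. ACHE, which breaks acetylcholine down, had 0.195, 0.0627 and 0.108 TPM. The ganglionic nicotinic receptor, through which sympathetic neurons receive their input, was represented by CHRNA3 with 259.9, 268 and 249 TPM, CHRNB4 with 56.5, 63.0 and 52.0 TPM and CHRNA5 with 50.9, 58.6 and 51.2 TPM. These genes lie in 1 cluster on chromosome 15, and CHRNA3 exceeded CHRNB4 by 4.60, 4.25 and 4.79 times in the libraries. CHRNA7, the homomeric alpha 7 receptor, averaged 18.2 ± 2.63 TPM and CHRM2, a muscarinic receptor, 22.1 ± 1.28 TPM, while CHRNA4, the main brain subunit, averaged 0.84 TPM.

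Genes of other transmitter systems were near 0. All 14 genes listed for glutamate, GABA, glycine, serotonin, dopamine, histamine and nitric oxide signalling were below 1 TPM. Among protein-coding genes, 71.1% reached that level. The 14 genes together summed to 2.66 to 3.47 TPM per library. The highest was SLC17A7, the vesicular glutamate transporter of cortex, with 0.657, 0.739 and 0.615 TPM, while SLC17A6, its counterpart in sensory and subcortical neurons, was listed at 0. GAD1 and GAD2, which make GABA, averaged 0.331 and 0.0518 TPM. FEV, a regulator of serotonin neurons, stood above 10 TPM while the serotonin genes TPH2 and SLC6A4 averaged 0.548 and 0.0665 TPM.

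**Figure D4:**
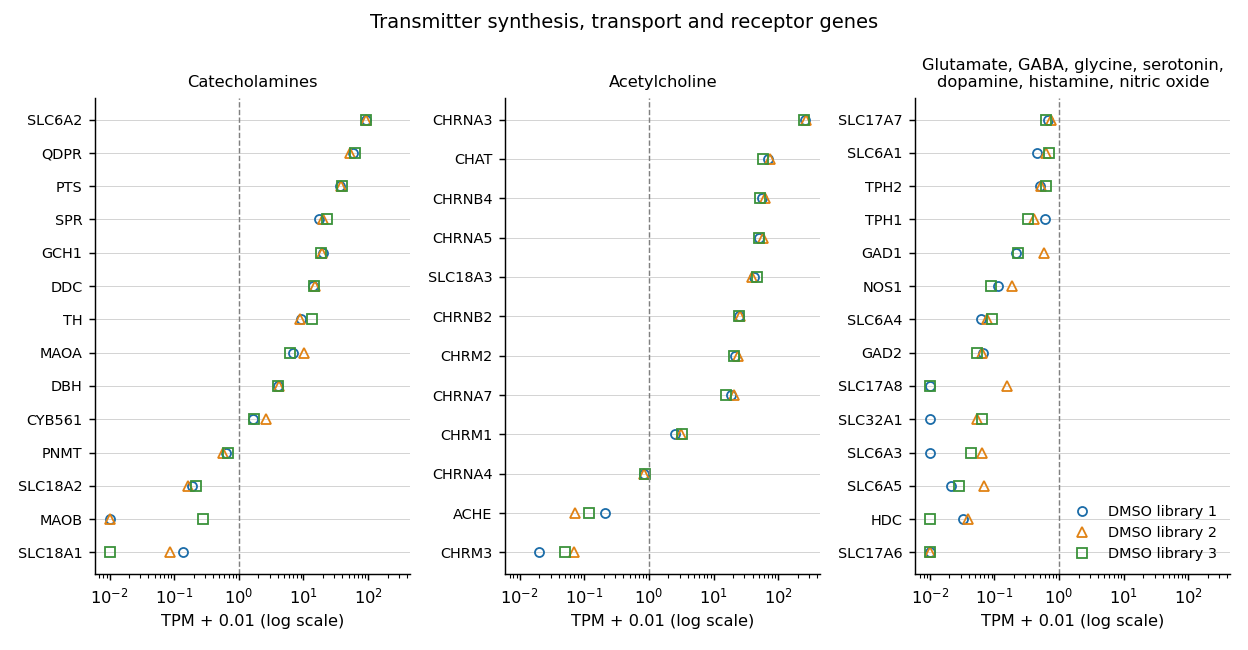
TPM plus 0.01 (log axis) in each DMSO library for listed genes of catecholamine, acetylcholine and other transmitter systems, ordered by mean, with 1 symbol per library and a dashed line at 1 TPM. SLC6A2, CHAT and SLC18A3 lie well right of the line, the vesicular monoamine transporters SLC18A1 and SLC18A2 lie left of it, and so do all 14 genes of the right panel.

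Peptides and granule proteins were uneven. Of 20 in the table, 13 reached 1 TPM (65%, against 71.1% of protein-coding genes). GAL, the neuropeptide galanin, had 459, 401 and 475 TPM, the highest of the list, and CHGA, the granule protein chromogranin A used as a tumour marker, had 138, 138 and 158 TPM. ADCYAP1, the peptide PACAP, averaged 64.1 ± 3.58 TPM, and SCG3, CHGB and SCG2, further granins, averaged 94.6, 44.6 and 25.4 TPM. NPY, the usual partner of noradrenaline in sympathetic neurons, had 2.87, 3.92 and 2.95 TPM, and VIP, a peptide of cholinergic sympathetic neurons, had 0.984, 0.865 and 0.866 TPM. CPE and PAM, which trim and amidate peptides, averaged 101 ± 1.88 and 27.0 ± 2.63 TPM. The convertases that cut the precursors were low, PCSK1 with 0.18, 0.257 and 0.131 TPM and PCSK2 with 1.14, 1.14 and 1.96 TPM, while PCSK1N, an inhibitor of PCSK1, averaged 91.7 ± 14.7 TPM. CARTPT and NPPB were listed at 0.

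All 46 pan-neuronal and axonal genes listed reached 1 TPM, against 71.1% of protein-coding genes. At least 100 TPM was reached by 19 of them, and by 8.10% of protein-coding genes. The list was chosen with earlier results of these data known, so the full count may reflect the choice of members. Their median was 65.9 TPM. UCHL1, a deubiquitinase that makes up a sizeable part of brain protein, had 872, 832 and 946 TPM. STMN1, a tubulin-sequestering stathmin of dividing and migrating cells, had 656, 666 and 668 TPM, and the neuronal tubulin genes TUBA1A, TUBB2B and TUBB3 averaged 613, 329 and 131 TPM. ELAVL4, the RNA-binding protein HuD, averaged 170.0 ± 22.9 TPM, and STMN2, a stathmin of growing axons, 106 ± 6.51 TPM. GAP43, a protein of growth cones, averaged 15.6 ± 1.29 TPM, and MAPT, the axonal protein tau, 5.79 ± 0.508 TPM. Of the neurofilaments, INA, found early in development, averaged 126 ± 7.68 TPM and PRPH, the peripheral form, 104 ± 12.3 TPM, whereas NEFM and NEFL averaged 28.4 and 13.1 TPM. MAP2, MAP1B and DCX, which bind microtubules, each had library 2 highest and library 3 lowest, as in MAP1B with 154, 179.6 and 121 TPM.

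Genes of vesicle release were mostly present, and postsynaptic genes were present in part. Of 29 genes of synaptic vesicles and release, 26 reached 1 TPM (89.7%), and of 28 postsynaptic genes and receptors for glutamate and GABA, 18 did (64.3%), against 71.1% of protein-coding genes. At 0.5 TPM the counts were 26 and 23, with 75.7% of protein-coding genes at that level. The lists had medians of 14.2 and 2.72 TPM. CPLX2, a complexin that clamps vesicle fusion, had 193, 202 and 169.7 TPM. SYT1, the calcium sensor of release, averaged 69.8 ± 7.94 TPM, SYP, a vesicle membrane protein, 69.0 ± 6.08 TPM, and SNAP25, a SNARE of the plasma membrane, 25.3 ± 2.33 TPM. SYN3, RIMS1 and SV2B were the release genes below 1 TPM. On the postsynaptic side, NLGN2, an adhesion molecule of inhibitory synapses, averaged 41.9 ± 1.07 TPM, and DLG4, the scaffold PSD-95 of excitatory synapses, 29.3 ± 2.65 TPM. GABRA2, a GABA receptor subunit, averaged 0.539 TPM. The NMDA receptor genes were unequal, with GRIN1, the obligatory subunit, at 13.9 ± 1.85 TPM and GRIN2A and GRIN2B at 0.00359 and 0.00531 TPM. CAMK2A, an abundant kinase of mature forebrain synapses, averaged 0.0612 TPM.

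Of 29 voltage-gated channel genes in the table, 16 reached 1 TPM (55.2%, against 71.1% of protein-coding genes), 6 had at least 10 TPM and 1 had at least 100 TPM. KCNQ3, a potassium channel that restrains firing, had 2.52, 2.71 and 2.03 TPM. KCNH2, the ERG potassium channel, averaged 36.0 ± 1.78 TPM, and CACNA1B, the N-type calcium channel of sympathetic terminals, 11.9 ± 2.16 TPM. Among sodium channels, SCN8A and SCN9A averaged 8.73 ± 2.62 and 6.96 ± 0.979 TPM, whereas SCN1A and SCN2A averaged 0.227 and 0.333 TPM and SCN10A, of pain-sensing neurons, was listed at 0.

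Of 33 receptor tyrosine kinases, coreceptors and neurotrophin receptors, 25 reached 1 TPM (75.8%, against 71.1% of protein-coding genes). GFRA2, the coreceptor of neurturin, had 247, 257 and 267 TPM. RET, the signalling kinase that GFRA2 works with, had 0.922, 0.596 and 0.597 TPM, so the coreceptor stood at 267, 430.4 and 447 times the kinase. RET was below 1 TPM in every library, so these ratios are imprecise. NTRK3, the receptor of neurotrophin 3, averaged 11.3 ± 0.709 TPM, whereas NTRK2, the receptor of BDNF, averaged 0.018 TPM. NGFR, the low-affinity receptor p75, averaged 19.2 ± 0.502 TPM. ALK, a kinase often mutated in neuroblastoma, had 9.57, 11 and 9.36 TPM. KIT averaged 15.4 ± 2.68 TPM and PDGFRA 22.7 ± 1.79 TPM, while MET, AXL and LTK, the receptor related to ALK, averaged 0.00744, 0.0556 and 0.0549 TPM. FGFR3 had 8.27, 8.32 and 15.5 TPM and was high in library 3 alone.

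Of the 15 genes in the table listed for ligands, 11 reached 1 TPM (73.3%, against 71.1% of protein-coding genes), and 2 had at least 10 TPM, a level reached by 48.4% of protein-coding genes. MDK, the growth factor midkine and the ligand of several neural receptors, had 1582, 1477 and 1717 TPM and ranked 105 of all genes, against 6.57, 8.18 and 9.29 TPM for its relative PTN. The other gene with at least 10 TPM was the inhibitory Notch ligand DLL3, with 47.2, 45.7 and 51.2 TPM. The neurotrophic factors BDNF, NRTN and GDNF averaged 1.14, 1.06 and 0.0412 TPM, and NRTN (neurturin) was far below its coreceptor GFRA2.

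Of 18 surface antigens and enzymes of ganglioside GD2 synthesis, 16 reached 1 TPM (88.9%, against 71.1% of protein-coding genes). CD24, a small glycoprotein of neural and epithelial progenitors, had 788, 847 and 770.0 TPM. L1CAM and NCAM1, adhesion molecules of axons, averaged 109 ± 13.0 and 93.4 ± 14.2 TPM, and CD276 and GPC2, targets of experimental antibodies, averaged 76.7 and 69.8 TPM. Of the enzymes that make GD2, the target of antibody treatment, B4GALNT1 averaged 40.0 ± 3.64 TPM and ST8SIA1, which makes its precursor GD3, 5.12 ± 0.223 TPM. CD274, the checkpoint ligand PD-L1, averaged 0.0183 TPM.

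Within the MYC network, MYCN was the highest of the 13 genes in the table. Of these, 11 reached 1 TPM (84.6%, against 71.1% of protein-coding genes). MAX, the obligatory partner of MYC proteins, had 71.3, 67.8 and 69.9 TPM, so that MYCN exceeded it by 14.9, 16.2 and 15.9 times. MYC, which is often low where MYCN is amplified, had 0.512, 0.188 and 0.148 TPM and MYCL had 2.37, 2.00 and 2.11 TPM. Among the repressors that compete for MAX, MXD4 and MXD3 averaged 56.5 ± 2.16 and 45.6 ± 7.26 TPM and MNT 25.7 ± 1.39 TPM. MLX, the partner of a parallel branch of the network, averaged 72.5 ± 1.91 TPM, close to MAX and overlapping it in range.

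Of 22 fetal and stem cell genes, 16 reached 1 TPM (72.7%, against 71.1% of protein-coding genes), 3 had at least 100 TPM, and the median was 4.20 TPM. HMGA1, an architectural chromatin protein, had 508, 495 and 524 TPM, while its relative HMGA2 had 0.031, 0.0669 and 0.0437 TPM. LIN28B, a blocker of let-7 maturation linked to neuroblastoma, had 16.4, 17.5 and 14.0 TPM, and LIN28A averaged 0.0318 TPM. IGF2BP1 and IGF2BP3, RNA-binding proteins of fetal tissue, averaged 103 ± 14.3 and 41.8 ± 7.39 TPM, while IGF2 itself averaged 0.385 TPM. The pluripotency genes POU5F1, SOX2 and NANOG averaged 1.04, 0.496 and 0.133 TPM. TERT, the catalytic subunit of telomerase, had 3.46, 5.97 and 4.88 TPM.

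In DMSO, the Polycomb genes were present almost completely. Of 26 listed, 25 reached 1 TPM (96.2%, against 71.1% of protein-coding genes), with a median of 47.4 TPM. BMI1, the PCGF subunit of Polycomb repressive complex 1 that the series targets, had 47.9, 51.8 and 43.9 TPM. Its paralogue PCGF2 had 49.0, 49.4 and 49.5 TPM, which overlapped it, and PCGF1 of a variant complex had 133, 107 and 128 TPM, above both in every library. Of the chromobox proteins that read the Polycomb mark, CBX2 had 151, 154 and 154 TPM and CBX8 46.2, 46.1 and 48.6 TPM, while CBX7 had 0.861, 0.839 and 0.623 TPM and was the member below 1 TPM. EZH2, the methyltransferase of Polycomb repressive complex 2, averaged 69.4 ± 1.05 TPM, and EED and SUZ12, its partners, averaged 29.8 and 27.3 TPM.

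Of 13 genes of the p53 pathway, 12 reached 1 TPM (92.3%, against 71.1% of protein-coding genes). MDM2, a ubiquitin ligase and negative regulator of the pathway, had 74.1, 88.6 and 59.9 TPM. BAX, a p53 target that drives apoptosis, averaged 229 ± 33.6 TPM and CDKN1A, the cell cycle inhibitor p21, 78.6 ± 1.33 TPM. CDKN2A, a tumour suppressor and repressed target of BMI1, had 0.497, 0.203 and 0.551 TPM and was the member below 1 TPM.

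Cell cycle genes were among the most abundant lists, with a median of 127 TPM. Of 30 in the table, 28 reached 1 TPM (93.3%, against 71.1% of protein-coding genes). At least 100 TPM was reached by 18 of them, and by 8.10% of protein-coding genes. CDK4, the kinase of the G1 phase, had 508, 502 and 517 TPM and CCND1, its cyclin, 355, 387 and 338 TPM. CDK6, which shares that role, had 87.7, 100.4 and 65.3 TPM and the 3 libraries differed more. PCNA, the sliding clamp of replication, averaged 448 ± 13.0 TPM, TYMS, an enzyme of thymidylate synthesis, 369 ± 9.33 TPM, and TOP2A, a topoisomerase of mitosis, 179 ± 17.0 TPM. The CDK4 inhibitors were unequal, with CDKN2C at 137 ± 5.97 TPM, CDKN2A as given above and CDKN2B at 0.0353 TPM.

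Antigen presentation by class I molecules was incomplete. Of 17 genes in the table, 8 reached 1 TPM (47.1%, against 71.1% of protein-coding genes) and 2 had at least 10 TPM. B2M, the shared light chain, had 473, 491 and 493 TPM, whereas the heavy chains HLA-B and HLA-C averaged 0.115 and 0.0953 TPM. TAP1 and TAP2, which carry peptides to class I molecules, averaged 0.0134 and 0.206 TPM, and PSMB9 of the immunoproteasome 0.045 TPM. HLA genes are polymorphic and present on alternative haplotypes, so reads can be lost or divided between rows, and their rows were summed here.

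Markers of cell types outside the nervous system were low with a few exceptions. None of 10 liver and endoderm markers reached 1 TPM, a level reached by 71.1% of protein-coding genes. The sum of these markers was at most 1.27 TPM in a library. Of 9 endothelial, 15 blood and immune, 9 epithelial and 9 adrenal cortex markers in the table, 1, 2, 1 and 1 reached 1 TPM, and none had 10 TPM. These were EMCN, PTPRC and CD68, MUC1 and STAR, with means of 2.18, 3.99, 1.85, 8.69 and 1.85 TPM. MUC1, a mucin of epithelial surfaces, had 15.6, 3.91 and 6.61 TPM and was highest in library 1. The defining genes PECAM1, EPCAM and NR5A1 averaged 0.115, 0.194 and 0.00505 TPM, and MS4A1 and KRT19 were listed at 0. Of 10 muscle markers, 3 reached 1 TPM, including MYOG, the muscle factor myogenin, with 3.33, 3.86 and 4.07 TPM beside MYOD1 at 0.0396 TPM. Of 6 melanocyte markers, 2 reached 1 TPM, with PMEL, a protein of pigment granules, at 19.8, 20.8 and 22.6 TPM and TYR, the pigment enzyme, at 0.19 TPM.

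Fibroblast markers gave the most mixed picture of these lists. Of 11 in the table, 6 reached 1 TPM (54.5%, against 71.1% of protein-coding genes) and 5 had at least 10 TPM. FBLN1, the matrix protein fibulin 1, had 185, 177 and 186 TPM, and THY1, a surface protein that neurons also carry, averaged 54.0 ± 4.53 TPM. COL1A1 had 14.5, 18.4 and 14.5 TPM while COL1A2, which encodes the other chain of the same type I collagen, had 0.233, 0.214 and 0.111 TPM. COL3A1, DCN, LUM and POSTN averaged 0.0623, 0.282, 0.233 and 0.0264 TPM, so members near 0 stood beside the high FBLN1 in the same list. The list summed to 295 to 308 TPM per library, of which FBLN1 made up the larger part.

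The 3 libraries resembled each other closely, and their differences grew as levels fell. Over the 13428 genes that reached 1 TPM, the SD of log2(TPM + 1) had a median of 0.13 and a 90th percentile of 0.32. The coefficient of variation was under 10% for 51.0% of these genes and over 50% for 3.31%. It had a median of 3.95% for the 144 genes with at least 1000 TPM, 9.04% for genes between 10 and 50 TPM, and 20.7% for the 2909 genes between 1 and 5 TPM. Pearson correlations of log2(TPM + 1) across these genes were 0.987 between libraries 1 and 2, 0.986 between 1 and 3 and 0.983 between 2 and 3. These are correlations across genes, which are not independent and share each library's scale. Between 224 and 258 genes differed at least 2-fold on that scale in a pair of libraries.

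The differences had a direction. Library 2 was the highest for 50.9% of the genes and library 3 the lowest for 45.2%, and the median log2 difference of library 3 minus library 2 was -0.08. These offsets followed transcript length and base composition. With genes cut into quintiles, the shortest transcripts are those of up to 1962 bases, and for these library 3 exceeded library 2 by a median of 0.07 on the log2 scale. For the longest, from 5867 bases, the median difference was -0.28, and the quintiles between them lay in order. In the quintile lowest in GC, up to 40.8%, the median difference of library 3 minus library 2 was -0.21, and in the quintile highest in GC, from 58.2%, it was 0.11. Library 2 minus library 1 ran the other way with length, at -0.00 in the shortest quintile and 0.13 in the longest. Length and GC were read from the longest annotated transcript, which was found for 98.8% of the genes, and the part of each in the offsets was not tested.

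**Figure D5:**
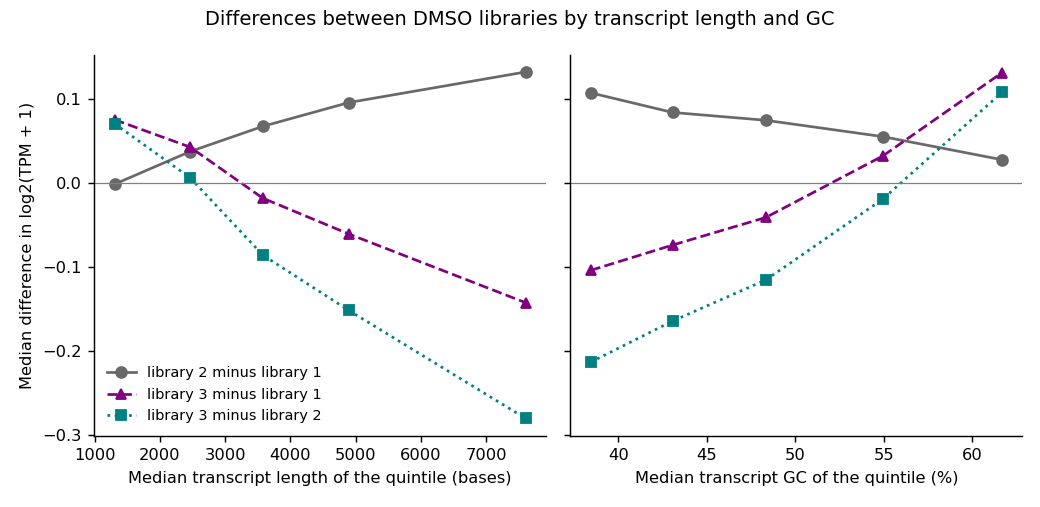
Median difference in log2(TPM + 1) between pairs of DMSO libraries for quintiles of the genes with at least 1 TPM, by transcript length in bases (left) and transcript GC in percent (right), with 1 line per pair of libraries. The lines of library 3 decline with length, to -0.28 against library 2 in the longest quintile, and climb with GC, to 0.13 against library 1 in the highest quintile.

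Several genes described above were highest in library 2 and lowest in library 3, among them MAP1B and CDK6, and the part of the length pattern in their values was not tested. Among abundant genes chosen after their values were seen, SETD5, a chromatin regulator, had 113, 152 and 85.4 TPM and DDX3X, an RNA helicase, 213, 227 and 148 TPM, in the same order of libraries. MT-ND4L, a mitochondrial subunit of complex I whose mRNA is shared with MT-ND4, had 8251, 8147 and 5394 TPM and was low in library 3. At the other end, after DDX1, the steadiest genes with at least 100 TPM included SAE1 with 184, 184 and 184 TPM and CALM2, a calmodulin gene, with 653, 657 and 654 TPM, also chosen after their values were seen.

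The 20 genes with the largest SD of log2(TPM + 1) among the 8696 with at least 10 TPM comprised 10 pseudogenes, 9 protein-coding genes and 1 locus without annotation. FABP5P7, a pseudogene of the fatty acid binding protein FABP5, led with 5.08, 59.1 and 82.8 TPM, low in library 1. The readthrough gene MSANTD3-TMEFF1 had 1.90, 15.1 and 16.7 TPM, and the beta-defensin gene DEFB131B had 12.6, 16.1 and 2.94 TPM. In the 20, library 2 was highest for 14 genes and library 3 lowest for 11. The named protein-coding members with ordinary loci included DNAJB14, a chaperone partner, with 27.0, 26.0 and 10.1 TPM, ST6GAL2, a sialyltransferase, with 8.98, 23.1 and 9.44 TPM and RYR3, a calcium release channel, with 13.3, 23.4 and 8.14 TPM. Reads of near-identical copies can be divided differently between loci in each library, so the values of the pseudogenes are uncertain.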

How the data were processed

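RNA-seq of IMR-32 cells was used as a deposited table of TPM values, which the authors computed per gene for 6 libraries, 3 of them given DMSO for 24 h. The genome build is GRCh38, per the submitters' processing notes, while the aligner, quantifier and gene models were not given in the sources used here. Such values are normalised for transcript length and library total, so depth cannot be read from them. The DMSO columns summed to 999997, 999990 and 999997 TPM.

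The table held 23555 rows, mostly protein-coding genes and pseudogenes, so long non-coding RNA is largely not analysed here. GENCODE release 29 held the identifiers of 22507 rows, and the other 1048 kept the name given in the table. As deposited, 29 symbols appeared as dates or numbers, and these were restored from their identifiers. Rows of 1 symbol were summed (462 genes with 1189 rows), which gave 22828 genes. Of the rows, 1632 were at 0 in all DMSO libraries, and none was at 0 in all 6 libraries.

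Means and SDs were taken over the libraries, and spread was measured on log2(TPM + 1), with a pseudocount of 1. Genes named in the text are the 30 with the highest mean, members of the gene lists, the 20 with the largest SD of log2(TPM + 1) among those with a mean of at least 10 TPM, genes within 1 Mb of MYCN and the 3 most abundant of each class. Genes outside this rule are marked as picked with their values in view, and a few list members are counted but not reported here. Members and lists were chosen with earlier results of these data known. There is no contrast in this group, so no test was made. Pseudogenes were aligned to coding transcripts with BLAST+ 2.17.0. The calculations used Python 3.11.15, pandas 2.3.3, numpy 2.4.6, scipy 1.17.1 and matplotlib 3.10.9, and were checked on simulated data. Alternatives changed the TPM threshold, the pseudocount, the filter on low values, the scaling, the summing of rows and the libraries used.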

Additional observations from a re-analysis of the deposited data

How the results depend on the processing

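Of 36 alternatives to the main summaries, 34 moved the value little. Little means less than the spread between libraries for a share, and less than 1.5 times for a count or the median spread. With the mitochondrial genes removed and the libraries rescaled, the 100 most abundant genes held 34.4% of the TPM, against 35.9% in the full table, and the cytosolic ribosomal proteins held 25.3%, against 24.1%, as follows from removing abundant genes and rescaling the others. The number of genes that reached 1 TPM ranged between 13340 and 13496 when each library was left out in turn, was 14696 at 0.5 TPM and 10519 at 5 TPM, and fell to 12775 where every library had to reach 1 TPM. The median spread was between 0.09 and 0.13 with a library left out, lowest without library 3, and 0.14 with a pseudocount of 0.1 or 0.10 with one of 5. An SD over fewer libraries tends to a lower median, so the values with a library left out are not directly comparable with the others. Of 217 alternatives to the list counts, 201 stayed within 1.5 times, and the other 16 came from another threshold or from asking that every library reach 1 TPM. The list of other transmitter systems had 3 members at 0.5 TPM, in place of 0 at 1 TPM. Of 101 alternatives to the class shares, 83 moved by less than the spread between libraries.

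Depth limits the low end, since TPM gives no count behind a value, and a gene below 1 TPM or listed at 0 was low or not detected in these libraries and cannot be called silent. No paired analysis was possible because the values come from 1 group and from no test.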
